A study of Mus musculus with 14 samples.

Results

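Inhibitory checkpoint receptors are cell-surface proteins that dampen T cell activation, and the transcripts of 10 of them were followed here by gene symbol: Pdcd1, Ctla4, Lag3, Tigit, Pvrig, Btla, Cd160, Havcr2, Lilrb4a and Cd101. All 10 were listed in all 3 experiments, among 15319, 19825 and 15216 genes for the TIL, Prdm1 and Bcl6 experiments. FPKM is the count scaled to gene length and to 1 factor per library. All 10 passed a filter of a mean of at least 1 FPKM, which left 9748, 9947 and 9669 genes tested. RNA-seq libraries, 2 per group, came from mouse CD8+ T cells taken out of subcutaneous E.G7 tumors, an ovalbumin-expressing line derived from the EL4 lymphoma. In the TIL experiment, Bcl6-RFP reporter mice gave 3 populations of tumor-infiltrating lymphocytes, sorted on day 21: Bcl6+, TIM-3+ and DN TILs. In the other experiments, OT-I cells, whose transgenic T cell receptor recognises an ovalbumin peptide, were sorted out of E.G7 tumors about day 8 after transfer: Prdm1-overexpressing cells with controls labelled Prdm1neg, and Bcl6-overexpressing cells with controls labelled Bcl6neg, the control and overexpressing cells having been transferred together. The labels do not spell out DN, give no age, do not name the vector or the recipient mice, and leave it unsaid whether the replicates of a group are different animals. The p-values therefore speak only of the spread among the libraries at hand.

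PD-1 (Pdcd1) and CTLA-4 (Ctla4) belong to the CD28 family. PD-1 recruits the phosphatase SHP-2 to the activated T cell receptor and CD28, and CTLA-4 takes the ligands CD80 and CD86 away from CD28. LAG-3 (Lag3) binds MHC class II, and BTLA (Btla) and CD160 (Cd160) both bind HVEM. TIGIT (Tigit) and PVRIG (Pvrig) bind proteins of the nectin family in competition with the activating receptor CD226. TIM-3 (Havcr2) binds galectin-9, CEACAM1 and phosphatidylserine, while LILRB4A (Lilrb4a) and CD101 (Cd101) are immunoglobulin-superfamily receptors that are also found on myeloid cells. In mouse tumors and chronic infection, CD8+ T cells that keep seeing antigen carry several of these receptors at once. Cells of the TCF-1-expressing, stem-like state carry PD-1 but little TIM-3, and the terminally exhausted state carries both. BCL6 and Blimp-1 (Prdm1) are transcriptional repressors that oppose each other in many lymphocyte fate decisions.

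Total counts per library were between 18309162 and 22322079, and the smallest count of any of the 10 receptors in any library was 72, for Pvrig in a Bcl6+ TIL library. Levels of different receptors are compared in FPKM, which is corrected for gene length. Changes are log2 fold changes from edgeR's quasi-likelihood test on the counts, with their SE and a p-value adjusted by Benjamini-Hochberg over all genes tested, and a gene was called at an adjusted p under 0.05. Bcl6, the gene that names the sort or the overexpression, averaged 416 CPM (counts scaled to a common library total) in Bcl6+ TILs, 16.4 CPM in TIM-3+ TILs and 92.2 CPM in DN TILs, and 80.3 CPM in Bcl6-overexpressing cells against 3.95 CPM in their controls. Prdm1 averaged 174 CPM in Prdm1-overexpressing cells and 99.2 CPM in their controls, a difference that was not called (log2 fold change 0.81 ± 0.19 SE, adjusted p = 0.092 by edgeR). In the same experiment Bcl6 averaged 20.0 CPM in Prdm1-overexpressing cells and 8.26 CPM in their controls, without overlap. Bcl6 was not called either (log2 fold change 1.28 ± 0.29 SE, adjusted p = 0.089 by edgeR). Of the 8 CD8 T cell markers looked up, 7 were listed and detected in all libraries, and Trac was not used here. In the TILs the 6 B cell markers summed to at most 19.8 CPM and the 2 natural killer cell markers listed to at most 5.42 CPM. The 6 markers of CD4 and regulatory T cells summed to 498 to 501 CPM in Bcl6+ TILs, 289 to 301 CPM in TIM-3+ TILs and 317 to 348 CPM in DN TILs. Ikzf2 and Il2ra made up most of these sums, and Ikzf2 had 420.5 and 420.6 CPM in Bcl6+ TILs, 141 and 133 CPM in TIM-3+ TILs and 219.6 and 220.1 CPM in DN TILs, while the defining Foxp3 and Cd4 did not exceed 6.25 and 11.3 CPM. Markers of macrophages, monocytes and other cells moved with the groups, and their values are given here or beside the results. In the TILs, lymphoma and thymocyte markers summed to 47.1 to 53.4 CPM (Bcl6+), 32.98 to 36.9 (TIM-3+) and 42.7 to 53.9 (DN). In the same order, dendritic cell markers summed to 54.6 to 72.8, 65.2 to 69.4 and 81.5 to 89.9 CPM. Stromal and endothelial markers summed to 7.195 to 11.5, 2.003 to 3.02 and 13.6 to 15.3 CPM. Neutrophil markers summed to at most 3.98 CPM. Their part in the TIL results was not tested. In bulk libraries such as these, fewer cells that express a receptor and less of its RNA per cell cannot be told apart.

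On mm10, with the GENCODE M21 annotation, Pdcd1 lies at chr1:94038305-94052553 on the minus strand and Ctla4 at chr1:60887000-60915832 on the plus strand, and Tigit lies at chr16:43648867-43664146 on the minus strand and Btla at chr16:45224315-45257670 on the plus strand. Havcr2 lies at chr11:46454935-46481255 on the plus strand, Lag3 at chr6:124904361-124911705 on the minus strand, Cd160 at chr3:96798763-96829351 and Cd101 at chr3:100993529-101029556 on the minus strand, Pvrig at chr5:138341961-138343557 and Lilrb4a at chr10:51490956-51496611 on the plus strand. Exons of Lilrb4a share 1846 bases, 35.3% of its exonic length, with the same-strand gene Gm49339, and Lilrb4a has a close paralog, Lilrb4b, so its counts are uncertain to that extent. Cd160 shares 2.57% of its exonic bases with Pdzk1 on the other strand, and whether the counting used strand is not given in the sources used here.

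RefSeq promoter windows on GRCm38.p6, 250 bases before to 50 after each start, were found for 8 of the 10 receptors, with 2 starts for Cd160, and not for Lag3 and Lilrb4a. The 3 sequences printed here were chosen to show receptors that went in different directions in the results that follow: Havcr2, which was lower in Bcl6+ TILs and in Bcl6-overexpressing cells, Btla, which was higher in Bcl6+ than in TIM-3+ TILs, and Cd160 at its second start, which rose in Bcl6-overexpressing cells. Each is read 5′ to 3′ on the gene's strand, from chr11:46454681-46454980 (plus) for Havcr2, chr16:45224087-45224386 (plus) for Btla and chr3:96814472-96814771 (minus) for Cd160. Capitals mark matches, on either strand, to 4 short motifs: GAAAGT (a Blimp-1 core), TTCNNNGAA (a core shared by BCL6 and STAT sites), CTTTGA (a TCF/LEF core) and GGTGTG (a T-box site core).
Havcr2 promoter: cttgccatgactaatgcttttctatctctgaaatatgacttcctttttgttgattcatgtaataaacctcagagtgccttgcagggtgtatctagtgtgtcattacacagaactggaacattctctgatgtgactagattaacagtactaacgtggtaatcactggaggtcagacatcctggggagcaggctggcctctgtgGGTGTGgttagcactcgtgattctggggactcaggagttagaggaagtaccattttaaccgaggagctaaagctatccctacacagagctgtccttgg
Btla promoter: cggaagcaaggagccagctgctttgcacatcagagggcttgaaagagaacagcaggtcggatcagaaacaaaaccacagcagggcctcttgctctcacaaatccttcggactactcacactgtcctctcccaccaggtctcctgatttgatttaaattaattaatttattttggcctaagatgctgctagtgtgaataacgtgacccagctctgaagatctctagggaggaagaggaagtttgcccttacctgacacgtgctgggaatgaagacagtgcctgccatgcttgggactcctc
Cd160 promoter, second start: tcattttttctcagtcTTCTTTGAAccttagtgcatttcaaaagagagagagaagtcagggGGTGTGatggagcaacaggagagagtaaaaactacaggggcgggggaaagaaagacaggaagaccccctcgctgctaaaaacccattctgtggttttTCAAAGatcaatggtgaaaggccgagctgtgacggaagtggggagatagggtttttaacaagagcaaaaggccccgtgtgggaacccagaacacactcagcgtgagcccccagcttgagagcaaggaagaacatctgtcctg

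The Havcr2 window held the T-box letters once, with the first base 48 bases before the start, and none of the other marked motifs. The Btla window held none of the 4. The Cd160 window held TTCNNNGAA 234 bases before the start, a CTTTGA match that overlaps it, a second CTTTGA match in reverse complement 92 bases before the start, and GGTGTG 189 bases before the start. Among all 32851 RefSeq windows of the same length, 14.3% held GAAAGT, 8.3% TTCNNNGAA, 16.0% CTTTGA and 19.0% GGTGTG, so a match is common and is a description of letters only. Over the 9 windows of the receptors, GAAAGT was found in 0, TTCNNNGAA in 1, CTTTGA in 2 and GGTGTG in 4. The NFAT core GGAAA, which 61.3% of all windows held, was found in 6, among them those of Pdcd1, Tigit and Ctla4.

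In Bcl6+ and DN TILs the 4 most abundant receptors were Tigit, Pdcd1, Lag3 and Ctla4. In TIM-3+ TILs Havcr2, at 479 FPKM, stood above Ctla4, at 241 FPKM. Tigit, Pdcd1, Lag3 and Ctla4 together made up 96.3% of the summed FPKM of the 10 receptors in Bcl6+ TILs, 88.0% in TIM-3+ TILs and 93.7% in DN TILs. The sum itself was 3218 ± 46.0 FPKM in Bcl6+ TILs, 4934 ± 53.9 FPKM in TIM-3+ TILs and 2829.7 ± 75.7 FPKM in DN TILs (SD, n = 2 each). Over all genes, FPKM summed to 268076 and 268511 in Bcl6+ libraries, 334478 and 336448 in TIM-3+ ones and 285341 and 286144 in DN ones. The receptor sums are not scaled to these totals. Tigit was the most abundant receptor in all 3 populations. Lag3 stood above Pdcd1 in TIM-3+ TILs and below it in the other two, and no libraries overlapped in these orderings. Havcr2 had rank 8 in Bcl6+ TILs, where its libraries overlapped those of Btla just above it, but rank 4 in TIM-3+ TILs and rank 5 in DN TILs, where it overlapped Cd160. Btla had rank 7 in Bcl6+ TILs, rank 10 in TIM-3+ TILs and rank 8 in DN TILs.

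**Figure D1:**
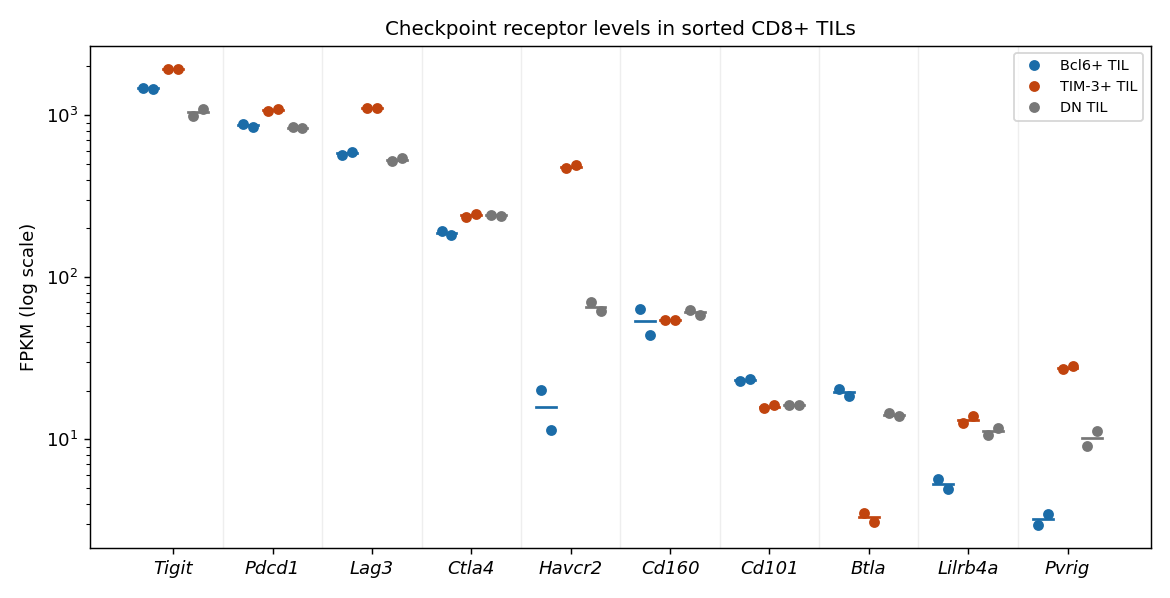
FPKM (log scale) of the 10 receptors in sorted CD8+ TILs from E.G7 tumors; each point is 1 library, each bar the mean of 2, in the order Bcl6+, TIM-3+ and DN. Havcr2 and Pvrig are lower in Bcl6+ TILs than in the other populations and Btla is higher, while the Bcl6+ libraries of Cd160 lie on both sides of the others.

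For the CD28-family receptors, differences between populations were small. Pdcd1 had 881 and 848 FPKM in Bcl6+ TILs, 1053 and 1089 FPKM in TIM-3+ TILs, and 842 and 834 FPKM in DN TILs. The TIM-3+ libraries lay above all others, and the Bcl6+ libraries lay just above the DN ones. Ctla4 had 193 and 182 FPKM in Bcl6+ TILs, 237 and 245 FPKM in TIM-3+ TILs, and 243 and 238 FPKM in DN TILs. For Ctla4 the Bcl6+ libraries were the low ones, and the TIM-3+ and DN libraries overlapped.

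Receptors for MHC class II and nectin-family ligands separated the populations further. Lag3 had 570.5 and 590.2 FPKM in Bcl6+ TILs, 1107 and 1101 FPKM in TIM-3+ TILs, and 518 and 543 FPKM in DN TILs. Tigit had 1470.5 and 1459 FPKM in Bcl6+ TILs, 1917 and 1932 FPKM in TIM-3+ TILs, and 990.1 and 1095 FPKM in DN TILs. Both were highest in TIM-3+ and lowest in DN TILs without overlap, with Bcl6+ TILs closer to DN TILs for Lag3 and in the middle for Tigit. Pvrig, which shares the nectin ligand family with Tigit, had 2.97 and 3.47 FPKM in Bcl6+ TILs, 27.0 and 28.1 FPKM in TIM-3+ TILs, and 9.13 and 11.3 FPKM in DN TILs. Here the Bcl6+ libraries were the lowest, in contrast to Tigit.

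The HVEM receptors differed from each other. Btla had 20.5 and 18.6 FPKM in Bcl6+ TILs, 3.53 and 3.08 FPKM in TIM-3+ TILs, and 14.5 and 13.9 FPKM in DN TILs, so the TIM-3+ libraries were the low ones. Cd160 had 63.2 and 44.0 FPKM in Bcl6+ TILs, 54.4 and 54.2 FPKM in TIM-3+ TILs, and 62.9 and 58.8 FPKM in DN TILs. The spread between the Bcl6+ replicates of Cd160 covered both other populations. Havcr2, which encodes the marker that the TIM-3+ TILs are labelled by, had 20.2 and 11.5 FPKM in Bcl6+ TILs, 469 and 489 FPKM in TIM-3+ TILs, and 69.8 and 61.5 FPKM in DN TILs. Lilrb4a had 5.67 and 4.94 FPKM in Bcl6+ TILs, 12.6 and 13.8 FPKM in TIM-3+ TILs, and 10.6 and 11.8 FPKM in DN TILs. Its Bcl6+ libraries were the low ones. Cd101 had 22.8 and 23.7 FPKM in Bcl6+ TILs, 15.5 and 16.2 FPKM in TIM-3+ TILs, and 16.3 and 16.3 FPKM in DN TILs, so that both Bcl6+ libraries lay above all others, as they did for Btla.

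Between Bcl6+ and TIM-3+ TILs, 7 of the 10 receptors were lower and 2 were higher in Bcl6+ TILs, against 19.6% and 19.1% of all genes tested (38.6% in either direction). In this comparison the groups did not overlap for 9 of the 10, as for 68.8% of all genes. The low ones ranged from Havcr2, the marker itself (log2 fold change -4.86 ± 0.19, adjusted p = 2.1e-10 by edgeR), to Pdcd1 (-0.25 ± 0.043, adjusted p = 0.0004). The Havcr2 difference only checks the sort, since TIM-3 is the sorting label. Pvrig was 8.21-fold lower in Bcl6+ TILs (log2 fold change -3.04 ± 0.29, adjusted p = 1.4e-06), Lilrb4a 2.39-fold lower (-1.25 ± 0.15, adjusted p = 1.5e-05) and Lag3 1.82-fold lower (-0.87 ± 0.044, adjusted p = 3.2e-09). Tigit (-0.33 ± 0.051, adjusted p = 0.00014) and Ctla4 (-0.30 ± 0.061, adjusted p = 0.0015) were lower as well. Btla was 6.16-fold higher in Bcl6+ TILs (log2 fold change 2.62 ± 0.17, adjusted p = 3.3e-08) and Cd101 1.53-fold higher (0.61 ± 0.13, adjusted p = 0.0019).

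Cd160 was not called between Bcl6+ and TIM-3+ TILs (log2 fold change 0.04, 95% interval -0.25 to 0.34, adjusted p = 0.84 by edgeR). Its sign hung on the Bcl6+ replicates, with -0.24 without Bcl6+ replicate 1, not called, and 0.29 without Bcl6+ replicate 2, called. The smaller differences depended on the scaling. With total counts in place of TMM, the median gene moved to 0.19 and with TPM to 0.26, and against that shift Pdcd1 was lower by about the same amount as before (-0.26 and -0.24 relative to the median gene), but its own log2 fold change was -0.07 and 0.01 and was not called. Ctla4 was not called under either scaling (-0.12 and -0.04) and Tigit was not called with TPM (-0.07), which left 2 higher and 5 lower with total counts and 2 higher and 4 lower with TPM. Cd3e, a subunit of the T cell receptor complex, was itself lower in Bcl6+ TILs, at 1386 CPM against 2174 CPM in TIM-3+ TILs. The 11 macrophage and monocyte markers summed to 239 to 280 CPM in Bcl6+ TILs, 53.2 to 72.3 CPM in TIM-3+ TILs and 154 to 159 CPM in DN TILs, with 8 of 8 tested higher in Bcl6+ than in TIM-3+ TILs, and their part in these results was not tested.

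Set against DN TILs, Bcl6+ TILs had 3 receptors higher and 4 lower, against 6.49% and 7.69% of all genes (14.2% in either direction), and the groups did not overlap for 9 of the 10 receptors and for 54.4% of all genes. Tigit was 1.42-fold higher (log2 fold change 0.50 ± 0.051, adjusted p = 1.2e-05 by edgeR), Cd101 1.44-fold higher (0.53 ± 0.13, adjusted p = 0.013) and Lag3 1.11-fold higher (0.14 ± 0.044, adjusted p = 0.044). Havcr2 was 4.11-fold lower in Bcl6+ TILs (-2.04 ± 0.17, adjusted p = 2.4e-06), and whether TIM-3 was part of the DN gate is not given in the sources used here. Pvrig was 3.14-fold lower (-1.65 ± 0.28, adjusted p = 0.001), Lilrb4a 2.09-fold lower (-1.06 ± 0.15, adjusted p = 0.00024) and Ctla4 1.27-fold lower (-0.34 ± 0.061, adjusted p = 0.0015). Btla did not pass the threshold (0.48, 95% interval 0.14 to 0.81, adjusted p = 0.059), nor did Pdcd1 (0.06, 95% interval -0.03 to 0.15, adjusted p = 0.43) and Cd160 (-0.17, 95% interval -0.46 to 0.12, adjusted p = 0.49). The Lag3 call was lost without Bcl6+ replicate 2 (0.12), DN replicate 1 (0.12) or DN replicate 2 (0.17). The Cd101 call was lost without the same libraries (0.50, 0.54 and 0.52). Each of these fits left 1 library in a group, and fewer of all genes were called in them as well. Btla was called with 5 of the alternatives, DESeq2 among them (0.48), and Cd160 was lower without Bcl6+ replicate 1 (-0.45) and slightly higher, not called, without Bcl6+ replicate 2 (0.07).

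TIM-3+ TILs had 5 receptors higher and 1 lower than DN TILs, against 14.9% and 13.2% of all genes (28.2% in either direction), and the groups did not overlap for 9 of the 10 receptors and for 65.0% of all genes. Apart from Havcr2, the sorting label (log2 fold change 2.82 ± 0.17, adjusted p = 3.9e-08 by edgeR), Pvrig was 2.61-fold higher (1.39 ± 0.26, adjusted p = 0.0013), Lag3 2.02-fold higher (1.01 ± 0.045, adjusted p = 2.2e-09), Tigit 1.79-fold higher (0.84 ± 0.051, adjusted p = 4.4e-08) and Pdcd1 1.24-fold higher (0.31 ± 0.043, adjusted p = 0.0001). Btla was 4.42-fold lower in TIM-3+ TILs (-2.15 ± 0.17, adjusted p = 5.2e-07). Ctla4 (-0.04, 95% interval -0.18 to 0.09), Cd160 (-0.21, -0.50 to 0.08), Cd101 (-0.09, -0.36 to 0.19) and Lilrb4a (0.19, -0.12 to 0.51) were not called. Under total counts and TPM, where the median gene moved to -0.18 and -0.19, Ctla4 (-0.21 and -0.23) and Cd160 (-0.38 and -0.39) were called lower as well, which gave 5 higher and 3 lower, and Pdcd1 kept its call at 0.14 and 0.12. The 3 comparisons share their libraries pairwise, so they are not independent of each other.

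**Figure D2:**
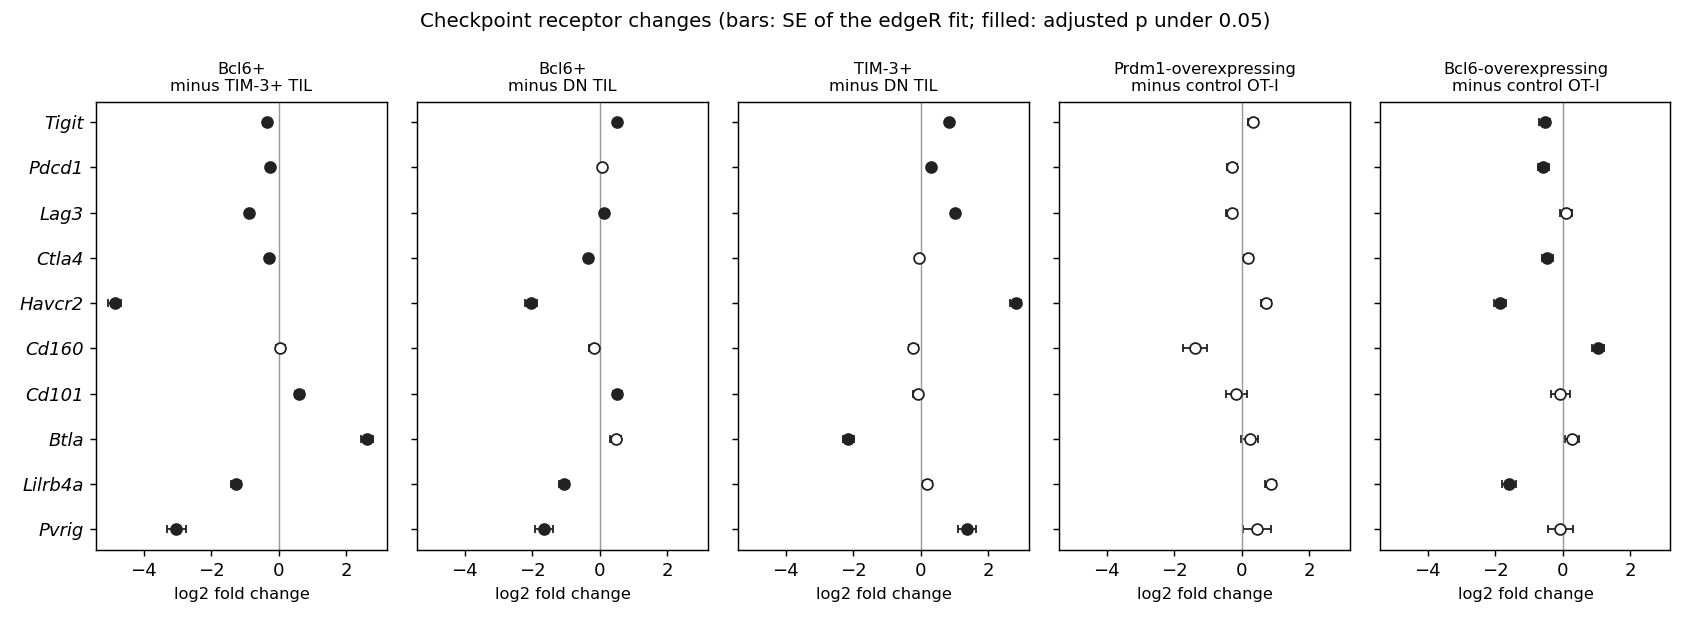
Log2 fold change (x axis, first-named minus second-named cells, with the SE of the edgeR fit) of the 10 receptors in 5 comparisons; filled points had an adjusted p under 0.05. Havcr2, Lilrb4a, Pdcd1, Tigit and Ctla4 are filled and left of 0 both in Bcl6+ minus TIM-3+ TILs and in Bcl6-overexpressing minus control OT-I cells. Of these 2 comparisons, Lag3, Pvrig, Btla and Cd101 are filled only in the TILs and Cd160 only in the OT-I cells. Of all genes, 19.6% and 23.4% were called lower in them, and the share lower in both is not given here. No point is filled for Prdm1-overexpressing cells. In the TILs, Havcr2 encodes the sorting label. There Pdcd1, Tigit and Ctla4 were not called with TPM (0.01, -0.07 and -0.04), nor Pdcd1 and Ctla4 with total counts. In Bcl6-overexpressing cells the calls of Pdcd1, Tigit and Ctla4 were lost with limma on log2(FPKM + 1).

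Bcl6-overexpressing OT-I cells had 5 receptors lower and 1 higher than their controls, against 23.4% and 25.4% of all genes (48.8% in either direction), and the groups did not overlap for 7 of the 10 receptors and for 75.7% of all genes. Havcr2 had 82.1 and 100.3 FPKM in Bcl6-overexpressing cells, against 314 and 306 FPKM in control cells. Lilrb4a had 6.21 and 9.03 FPKM in Bcl6-overexpressing cells, against 22.8 and 20.6 FPKM in control cells. Both were low in each overexpressing library. Havcr2 was 3.61-fold lower (log2 fold change -1.85 ± 0.18, adjusted p = 2.5e-08 by edgeR) and Lilrb4a 3.02-fold lower (-1.60 ± 0.21, adjusted p = 2.2e-06), and unlike in the TILs, the sort is not labelled by TIM-3 here.

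Pdcd1 had 758 and 653 FPKM in Bcl6-overexpressing cells, against 980.0 and 986 FPKM in control cells. Tigit had 673 and 656 FPKM in Bcl6-overexpressing cells, against 902 and 904 FPKM in control cells. Ctla4 had 250.0 and 266 FPKM in Bcl6-overexpressing cells, against 335 and 331 FPKM in control cells. For each of these abundant receptors the overexpressing libraries lay below the control libraries. Pdcd1 was 1.48-fold lower (log2 fold change -0.57 ± 0.17, adjusted p = 0.0095 by edgeR), Tigit 1.44-fold lower (-0.53 ± 0.16, adjusted p = 0.012) and Ctla4 1.37-fold lower (-0.45 ± 0.17, adjusted p = 0.028). All 3 calls were lost without control replicate 1 (-0.58, -0.54 and -0.46) or control replicate 2 (-0.56, -0.53 and -0.47). These fits left 1 control library, and fewer of all genes were called in them as well. With limma on log2(FPKM + 1), where 47% of all genes were called, the 3 calls were also lost (-0.48, -0.44 and -0.37). When a trend of the counts with gene length was removed from each library, their log2 fold changes were larger, at -1.20, -2.36 and -0.80, and with TPM they were -0.91, -0.87 and -0.79; the cause was not tested.

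Cd160, the one receptor called in the other direction, had 152 and 131 FPKM in Bcl6-overexpressing cells, against 73.6 and 55.0 FPKM in control cells. Its overexpressing libraries were the high ones, and it was 2.07-fold higher (log2 fold change 1.05 ± 0.18, adjusted p = 7.3e-05 by edgeR). Lag3 had 653 and 533 FPKM in Bcl6-overexpressing cells, against 517 and 521 FPKM in control cells, and was not called (0.11, 95% interval -0.25 to 0.46, adjusted p = 0.64). Its sign turned without overexpressing replicate 1 (-0.05), with the length trend removed (-0.38) and with TPM (-0.24), none of them called. Btla had 11.6 and 12.0 FPKM in Bcl6-overexpressing cells, against 9.25 and 9.06 FPKM in control cells, with no overlap but no call (0.28, 95% interval -0.16 to 0.72, adjusted p = 0.29). In Bcl6-overexpressing cells, Cd101 (8.06 and 4.28 FPKM, against 6.07 and 6.09 FPKM in control cells) and Pvrig (4.50 and 7.68 FPKM, against 6.72 and 5.27 FPKM in control cells) overlapped with control and had wide intervals, -0.65 to 0.52 and -0.86 to 0.73 on the log2 scale. Pvrig was called lower, at -1.63, when the length trend was removed.

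The libraries of the Bcl6 experiment also differed in genes of other cells, in both directions. The 11 macrophage and monocyte markers summed to 570.4 to 662 CPM in Bcl6-overexpressing cells and 157 to 163 CPM in control cells, with 9 of 9 tested higher, and the neutrophil markers to 64.4 to 72.3 CPM against 2.12 to 4.33 CPM in control cells, where S100a8 was at 0 in both libraries. Other sums were lower in Bcl6-overexpressing cells: natural killer cell markers at 4.55 to 8.07 CPM against 21.6 to 23.3 CPM in control cells, dendritic cell markers at 141 to 163 CPM against 199.7 to 205 CPM, lymphoma and thymocyte markers at 20.1 to 20.3 CPM against 49.1 to 54.9 CPM, and stromal and endothelial markers at 5.49 to 6.36 CPM against 27.8 to 31.5 CPM. Markers of CD4 and regulatory T cells summed to 265 to 338 CPM in Bcl6-overexpressing cells and 354 to 361 CPM in control cells, and B cell markers to 8.98 to 12.2 CPM and 7.10 to 7.62 CPM. Myeloid cells can also express Havcr2 and Lilrb4a, and the part of such cells in the values of these receptors was not tested. The 7 CD8 T cell markers listed summed to 5137 to 5627 CPM in Bcl6-overexpressing cells against 2744 to 3472 CPM in control cells, with 4 of 7 called higher. Among them Cd3d had 1261 and 997 CPM in Bcl6-overexpressing cells against 269 and 219 CPM in control cells, and Thy1 had 512 and 393 CPM against 55.3 and 60.1 CPM in control cells. Cd3e was higher, at 600.0 CPM in Bcl6-overexpressing cells against 379.7 CPM in control cells, while Cd8a was not called, at 628 CPM against 673 CPM in control cells (log2 fold change -0.10, 95% interval -0.44 to 0.24). The part of these genes in the receptor results was not tested.

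**Figure D3:**
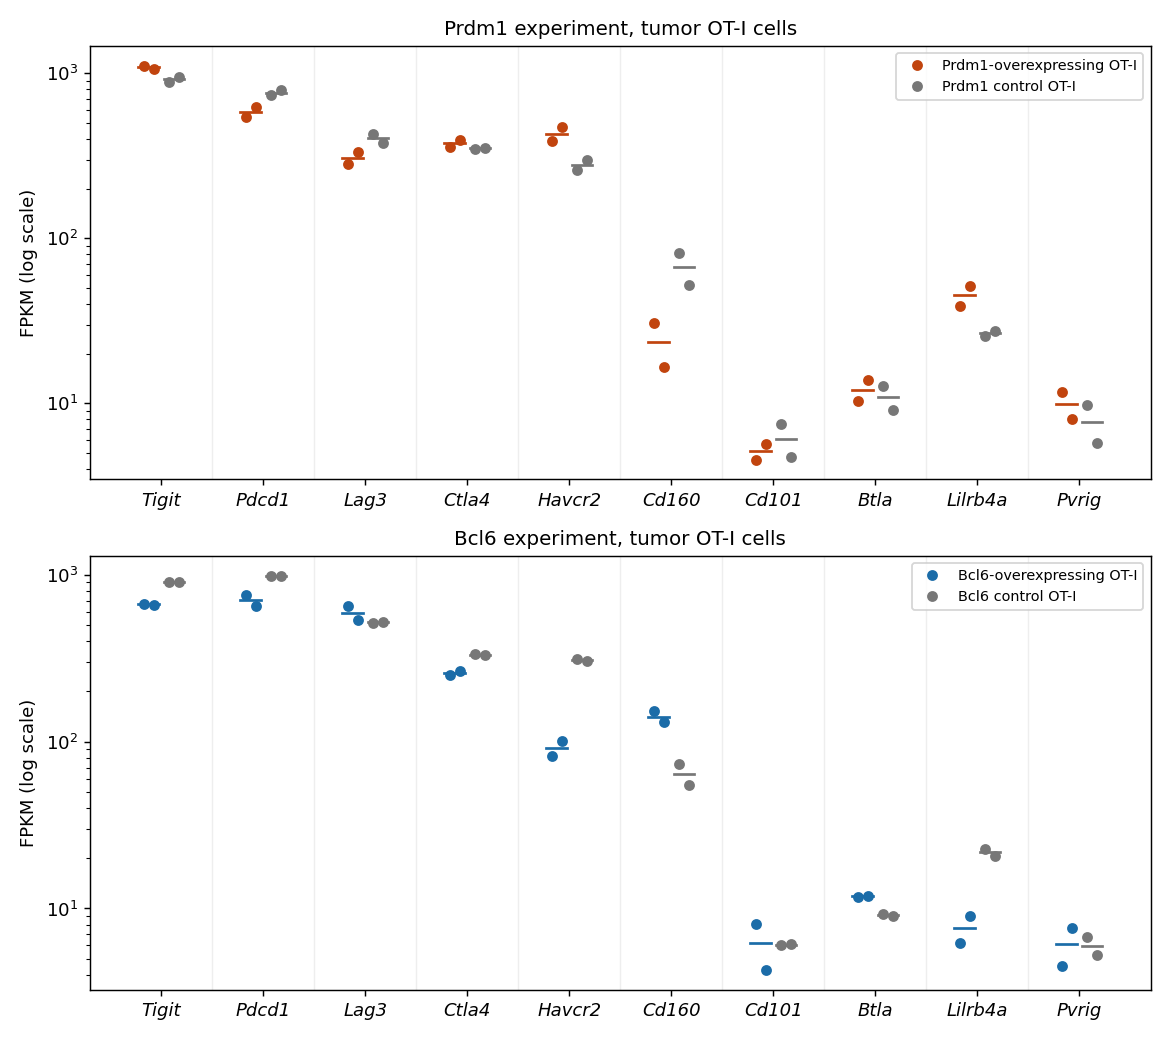
FPKM (log scale) of the 10 receptors in OT-I cells from E.G7 tumors, with the Prdm1 experiment above and the Bcl6 experiment below; points are single libraries and bars the means of 2, overexpressing cells left of their controls. Havcr2 and Lilrb4a lie below control in Bcl6-overexpressing cells and above control in Prdm1-overexpressing cells, and Cd160 does the opposite.

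In Prdm1-overexpressing OT-I cells 0 of the 10 receptors were called by edgeR, where 1.36% of all genes were called (1.16% higher and 0.201% lower). DESeq2 called 3 of the 10 and 5.89% of all genes. An unadjusted p under 0.05 by edgeR was found for 3 receptors, and its share over all genes is not given here. The groups did not overlap for 7 of the 10 receptors and for 51.1% of all genes. With a replicate block, which takes same-numbered libraries as pairs, 3 receptors and 16.7% of all genes were called. No label states such a pairing. Havcr2 had 391 and 471 FPKM in Prdm1-overexpressing cells, against 261 and 297 FPKM in control cells. Lilrb4a had 38.9 and 51.3 FPKM in Prdm1-overexpressing cells, against 25.5 and 27.5 FPKM in control cells. Cd160 had 30.6 and 16.6 FPKM in Prdm1-overexpressing cells, against 81.0 and 52.2 FPKM in control cells. These were the 3 with the low unadjusted p. The overexpressing libraries were both above control for Havcr2 (log2 fold change 0.73 ± 0.16, adjusted p = 0.082 by edgeR) and Lilrb4a (0.86 ± 0.17, adjusted p = 0.067), and both below it for Cd160 (-1.38 ± 0.35, adjusted p = 0.1). Without overexpressing replicate 1 the log2 fold changes of Havcr2, Lilrb4a and Cd160 were 0.81, 1.01 and -1.95. That of Cd160 was -1.05 without overexpressing replicate 2. Fits with 1 library left out have 1 library in a group, and which receptors were called depended on the library left out. So did the calls over all genes.

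Pdcd1, Lag3, Tigit and Ctla4 were not called in Prdm1-overexpressing cells either. Pdcd1 had 542 and 629 FPKM in Prdm1-overexpressing cells, against 741 and 788 FPKM in control cells (log2 fold change -0.29, 95% interval -0.64 to 0.06). Lag3 had 284 and 331 FPKM, against 430.1 and 377 FPKM in control cells (-0.29, -0.66 to 0.08). Tigit had 1113 and 1066 FPKM, against 892 and 951 FPKM in control cells (0.35, -0.01 to 0.70). The overexpressing libraries lay below control for Pdcd1 and Lag3 and above it for Tigit, without overlap, but none passed the test. Ctla4 had 358 and 394 FPKM in Prdm1-overexpressing cells, against 348 and 353 FPKM in control cells (0.20, -0.14 to 0.54), again without overlap and without a call. Btla (10.4 and 13.8 FPKM in Prdm1-overexpressing cells, 12.8 and 9.09 FPKM in control cells), Cd101 (4.56 and 5.70 FPKM, 7.49 and 4.73 FPKM in control cells) and Pvrig (11.8 and 8.01 FPKM, 9.71 and 5.74 FPKM in control cells) overlapped between the groups. Replicates spread more here than elsewhere, with a biological coefficient of variation of 0.227 against 0.149 in the TIL and 0.164 in the Bcl6 experiment. The CD8 T cell markers summed to between 2246 and 4442 CPM in the Prdm1-overexpressing libraries and between 2742 and 3635 CPM in control cells. Macrophage and monocyte markers summed to 189 to 332 CPM in Prdm1-overexpressing cells against 449 to 501 CPM in control cells, and neutrophil markers to 85.8 to 103 CPM against 3.81 to 5.91 CPM in control cells. Of these Mpo alone made up 82.0 and 98.1 CPM, while S100a8 stayed at or under 0.52 CPM in the same libraries. Markers of CD4 and regulatory T cells summed to 514 to 569.5 CPM in Prdm1-overexpressing cells against 284 to 349 CPM in control cells, of which Il2ra made up 425.5 and 486 CPM against 197 and 252 CPM. Natural killer cell markers summed to 34.1 to 43.5 CPM in Prdm1-overexpressing cells against 13.98 to 14.04 CPM in control cells, lymphoma and thymocyte markers to 81.8 to 84.4 CPM against 34.0 to 60.1 CPM, B cell markers to 14.9 to 18.2 CPM against 9.53 to 10.5 CPM, and dendritic cell markers to 137 to 143 CPM against 187 to 198 CPM. Stromal and endothelial markers overlapped, at 48.6 to 51.7 CPM and 50.5 to 65.4 CPM in control cells. Their part in the receptor values was not tested.

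Seen as a repertoire, Havcr2 stood in a different proportion to Pdcd1 in each group. The Havcr2 to Pdcd1 ratio of FPKM, averaged over the 2 libraries, was 0.0182 in Bcl6+ TILs, 0.447 in TIM-3+ TILs and 0.0783 in DN TILs. TIM-3 labels the sort of the TIM-3+ TILs, so their ratio set against the others only checks the sort. The ratio was 0.131 in Bcl6-overexpressing cells and 0.315 in their controls, and 0.735 in Prdm1-overexpressing cells and 0.364 in their controls. The summed FPKM of the 10 was 2485 ± 161 in Bcl6-overexpressing cells and 3155 ± 16.4 in their controls, and 2886 ± 143 in Prdm1-overexpressing cells and 2837 ± 39.5 in their controls (SD, n = 2 each). Over all genes, FPKM summed to 343867 and 324795 in the Bcl6-overexpressing libraries and 258148 and 240093 in their controls. In the Prdm1 experiment these totals were 268880 and 244846 in overexpressing libraries and 270757 and 258867 in controls. The receptor sums are not scaled to them. Pdcd1 had the highest FPKM in both groups of the Bcl6 experiment, with its libraries overlapping those of Tigit in Bcl6-overexpressing cells, whereas Tigit was first in both groups of the Prdm1 experiment. In Prdm1-overexpressing cells Havcr2 had rank 3, overlapping Ctla4, and in their controls it had rank 5. In Bcl6-overexpressing cells Cd160 had rank 5, just above Havcr2, and in their controls the order of these was turned round without overlap. The TIL experiment was processed with other tools than the OT-I experiments and each experiment was scaled by itself, so levels are compared only within an experiment.

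**Figure D4:**
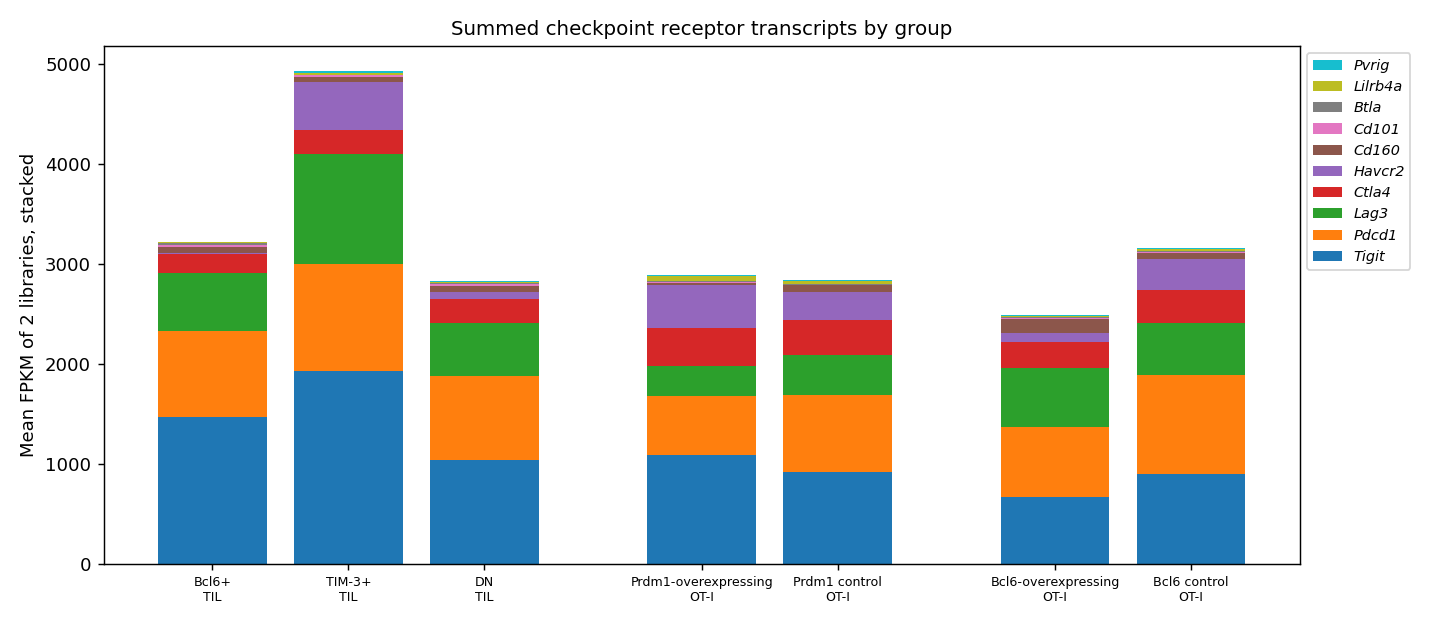
Mean FPKM of 2 libraries per group, stacked over the 10 receptors, for the TIL, Prdm1 and Bcl6 experiments from left to right. TIM-3+ TILs have the tallest stack of the TILs and the widest band of Havcr2, which encodes their sorting label. Bcl6-overexpressing cells have a thinner Havcr2 and a wider Cd160 band than their controls. The stacks are not scaled to the FPKM of all genes in a library.

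Over the 14 libraries, after subtraction of each experiment's mean from the log2 CPM, the receptors followed each other to different degrees. Ctla4 and Lilrb4a were the closest pair (Pearson's r = 0.978), followed by Havcr2 with Pvrig (0.885), Havcr2 with Lilrb4a (0.782) and Havcr2 with Ctla4 (0.717). Btla ran against Havcr2 (-0.887), Lag3 (-0.867) and Pvrig (-0.836), and Cd160 against Lilrb4a (-0.637). Among 8801 genes tested in all 3 experiments, Lef1 (0.984), Pik3ip1 (0.977) and Cd83 (0.975) were most like Btla, and Dlgap5 (0.986), Kif20a (0.986) and F2r (0.984) most like Havcr2. Lilrb4a was most like Tmem71 (0.982), Fasl (0.981) and Ctla4, and Ctla4 was most like Lilrb4a, Ifi209 (0.965) and Ifi47 (0.960). Pvrig was most like Gzmf (0.965), Ripply3 (0.963) and Klra3 (0.954), Lag3 most like B4galnt1 (0.967), Poc1a (0.961) and Cep250 (0.954), and Tigit most like Prim2 (0.941), Kif15 (0.937) and Zfp382 (0.933). Pdcd1 was most like Pfkp (0.953), Arf1 (0.940) and Hars (0.930), and Cd160 most like Utp11 (0.958), Gadd45b (0.947) and Bcl9l (0.945). Cd101 had the weakest best matches, Fiz1 (0.884), Acap1 (0.829) and Zfp1 (0.823). The libraries of a group share their sort or transgene, so these values describe how group means run together and carry no p.

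The first list held genes outside the 10 for inhibitory receptors and for related surface proteins, such as the enzyme CD39 and the ligand CD200. Of 13 tested in the TILs, 3 were higher and 9 lower in Bcl6+ than in TIM-3+ TILs (median log2 fold change -0.68, against 0.01 over all genes; 38.6% of all genes called), 2 higher and 4 lower in Bcl6+ than in DN TILs (14.2% of all genes called), and 8 higher and 2 lower in TIM-3+ than in DN TILs (28.2%). Entpd1, the ectonucleotidase CD39, was lower in Bcl6+ than in TIM-3+ TILs (log2 fold change -4.03 ± 0.094) and than in DN TILs (-2.33 ± 0.089). Cd244a, which encodes 2B4, was lower in the same comparisons (-3.31 ± 0.16 and -2.02 ± 0.15), and Cd200 was higher (1.25 ± 0.10 and 0.90 ± 0.10). In Bcl6-overexpressing cells 1 of 14 was higher and 5 were lower than in control cells, a share no larger than the 48.8% of all genes called. The lower ones were led by Klrc1, which encodes NKG2A (3.99-fold lower), Entpd1 (log2 fold change -1.64) and Cd244a (-1.62). In Prdm1-overexpressing cells 1 of 15 was called, Cd244a, which was higher (1.64, adjusted p = 0.011 by edgeR), with 1.36% of all genes called. DESeq2 called 5 of the 15 and 5.89% of all genes, and 9 had an unadjusted p under 0.05.

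Receptors that compete with or oppose the checkpoint receptors went in both directions. Of 9 tested, 3 were higher and 4 lower in Bcl6+ than in TIM-3+ TILs (38.6% of all genes called), among them Crtam, a nectin-like receptor (2.48 ± 0.094), Tnfrsf9, which encodes 4-1BB (-1.02 ± 0.047), and Cd226 (-2.02 ± 0.15), the activating counterpart of Tigit and Pvrig. Against DN TILs, 3 were higher and 1 lower in Bcl6+ TILs (14.2% of all genes called), with Crtam at 1.13 and Cd226 at -1.37. In TIM-3+ against DN TILs 5 were higher and 2 lower (28.2% of all genes called), with Tnfrsf9 at 1.17 and Crtam at -1.35. In Bcl6-overexpressing cells 2 were higher and 4 lower (48.8% of all genes called), with Cd226 at -1.40, Cd96 at -1.04 and Tnfrsf9 at -0.95. In Prdm1-overexpressing cells 0 of 9 were called by edgeR (1.36% of all genes called), and 3 had an unadjusted p under 0.05. DESeq2 called 1 of the 9 and 5.89% of all genes.

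Of 11 ligand genes tested, 2 were higher and 5 lower in Bcl6+ than in TIM-3+ TILs (38.6% of all genes called), 1 higher and 2 lower in Bcl6+ than in DN TILs (14.2%), and 4 higher and 1 lower in TIM-3+ than in DN TILs (28.2%). Lgals3, which encodes a galectin that binds LAG-3, was lower in Bcl6+ TILs (log2 fold change -2.25 ± 0.10 against TIM-3+ and -1.03 ± 0.10 against DN TILs). In Bcl6-overexpressing cells 2 ligands were higher and 7 lower (48.8% of all genes called), and Pdcd1lg2, which encodes the PD-1 ligand PD-L2, was one of the higher ones (1.43), while Hmgb1 (-1.16) and Ceacam1 (-1.79) were lower. In Prdm1-overexpressing cells 0 of 11 were called by edgeR (1.36% of all genes called), and 2 had an unadjusted p under 0.05. DESeq2 called 1 of the 11 and 5.89% of all genes.

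Downstream of the receptors, 18 signalling genes were tested. In Bcl6+ against TIM-3+ TILs 4 were higher and 7 lower (38.6% of all genes called), with Sh2d2a (-0.95 ± 0.046), Cblb, an E3 ubiquitin ligase that restrains T cell activation (-0.89 ± 0.063), and Dok2 (-1.02 ± 0.085) foremost. Against DN TILs 2 were higher and 5 lower in Bcl6+ TILs (14.2% of all genes called), with Sh2d1a, which encodes the adaptor SAP (0.62), and Dgkz, a diacylglycerol kinase (0.62), the higher ones. TIM-3+ TILs had 5 higher and 4 lower than DN TILs (28.2% of all genes called). In Bcl6-overexpressing cells 7 were higher and 4 lower (48.8% of all genes called), led by Bag6, which binds the TIM-3 tail (1.48), Sh2d1a (1.42) and Dgkz (1.31). In Prdm1-overexpressing cells 0 of 18 were called by edgeR (1.36% of all genes called), and 5 had an unadjusted p under 0.05. DESeq2 called 3 of the 18 and 5.89% of all genes. For genes that control where CTLA-4 and PD-1 go in the cell, 1 of 8 was higher and 2 were lower in Bcl6+ than in TIM-3+ TILs, near the 38.6% of all genes called, and 2 of 8 were higher in Bcl6+ than in DN TILs (14.2% of all genes called). Trat1, an adaptor that binds CTLA-4, was higher in both (4.75 ± 0.43 and 2.43 ± 0.37), Cmtm6, which keeps PD-L1 at the cell surface, was the other one higher against DN TILs (0.40 ± 0.096), and the sheddase gene Adam10 was lower against TIM-3+ TILs (-0.72 ± 0.095). TIM-3+ TILs had 3 of 8 higher and 1 lower than DN TILs (28.2% of all genes called). In Bcl6-overexpressing cells 1 of 7 was higher, again Trat1 (1.87), and 5 were lower, with Cmtm6 at -1.06 (48.8% of all genes called). In Prdm1-overexpressing cells Adam10 alone was called by edgeR (0.93), with 1.36% of all genes called, and 2 of 8 had an unadjusted p under 0.05. DESeq2 called 1 of the 8 and 5.89% of all genes.

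Transcription factors that have been reported at checkpoint genes formed the last list. In Bcl6+ against TIM-3+ TILs 6 of 18 were higher and 10 lower (38.6% of all genes called), in Bcl6+ against DN TILs 8 were higher and 5 lower (14.2%), and in TIM-3+ against DN TILs 10 were higher and 5 lower (28.2%). Bcl6 and Prdm1 define the sorts or go with them, with Bcl6 at 4.66 and Prdm1 at -3.61 in Bcl6+ against TIM-3+ TILs. Tcf7, which encodes TCF-1, was 21.4-fold higher in Bcl6+ than in TIM-3+ TILs, and Id2 was lower (-2.25 ± 0.059). In Bcl6-overexpressing cells 10 of 17 were higher and 2 lower (48.8% of all genes called), with Id3 at 3.74, Tcf7 at 1.81 and Prdm1 at -1.36. In Prdm1-overexpressing cells Tcf7 was the one factor of 17 called by edgeR, and it was lower (-2.39 ± 0.19, adjusted p = 0.0059). EdgeR called 1.36% of all genes there. DESeq2 called 6 of the 17 and 5.89% of all genes, and 10 had an unadjusted p under 0.05.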

How the data were processed

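The deposited tables of the authors hold, per the file headers, a whole-number read count and an FPKM value per gene and library. The authors' FPKM is the count divided by gene length and by 1 factor per library. That factor did not follow the library totals in the TIL experiment. Its log2, centred over the experiment, was -0.079 and -0.075 in the TIM-3+ libraries. DESeq2 size factors were at -0.070 and -0.064 there, and library totals at 0.067 and 0.081. Per the submitters' processing notes, Bowtie2, featureCounts and Subread, with edgeR and DESeq2, were used for TIL libraries, and HISAT2, RSEM and featureCounts, with DESeq2, for OT-I libraries, on mm10; versions, parameters and strand were not given in the sources used here. Groups were compared within an experiment only, since each experiment has its own controls and the TIL tables were made with other tools.

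Counts were tested in R 4.3.3 with edgeR 4.0.16 (quasi-likelihood, TMM scaling, two-sided), keeping genes whose mean FPKM in the fit reached 1, with Benjamini-Hochberg adjustment over all genes tested and a threshold of 0.05. A single fit held all 6 TIL libraries; the Prdm1 and Bcl6 experiments were fitted separately. SE was derived from the log2 fold change and the F statistic (|log2 fold change|/√F). The scripts were tested on simulated data. Alternatives were DESeq2 1.42.0 size factors and Wald test, total counts, removal of a gene-length trend, no filter, limma 3.58.1 on log2(FPKM + 1), log2(FPKM + 0.1) and log2(TPM + 1), only the compared groups, a replicate block, and leaving out each library. Replicate numbers are not stated to mark a shared animal. Replicates differed by more than sampling noise in all 7 groups.

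The 10 receptors and the lists were chosen with earlier results of these data known. The text names all 10, a few context genes, up to 3 members of each list per comparison with the smallest p among those called, and the 3 genes most like each receptor; Cd96, Pdcd1lg2, Ceacam1 and other list members and single markers beyond that rule were chosen after their values were seen.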

Additional observations from a re-analysis of the deposited data

How the results depend on the processing

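With 2 libraries per group, a receptor that was not called is not shown to be unchanged. The intervals are not adjusted for the number of genes, so an interval can exclude 0 without a call. Btla in Bcl6+ against DN TILs is such a case (0.14 to 0.81, adjusted p = 0.059 by edgeR). Pvrig had the largest SE of the receptors in every comparison. In the Prdm1 experiment the SE was 0.42 for Pvrig, 0.35 for Cd160 and 0.26 for Btla, and the cause was not tested. Between 6 and 10 receptors were called in Bcl6+ against TIM-3+ TILs over all alternatives, against 9 as reported; 5 to 8 in Bcl6+ against DN TILs, against 7; and 6 to 8 in TIM-3+ against DN TILs, against 6. In Prdm1-overexpressing cells the count of 0 became 1 with DESeq2 size factors, total counts or TPM. There 2.76%, 2.94% and 6.12% of all genes were called. It became 2 with the length trend removed (4.89% of all genes) and 3 with DESeq2's Wald test (5.89%), against 1.36% as reported. The count also moved with 1 library left out, as did the calls over all genes. In Bcl6-overexpressing cells the count of 6 became 3 with limma on log2(FPKM + 1) or log2(FPKM + 0.1), where 47% and 46.1% of all genes were called. It became 5 without the filter (46% of all genes) and 7 with the length trend removed (51.2%), against 48.8% as reported. The count also moved with 1 library left out, as did the calls over all genes. The cause was not tested.

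Same-numbered replicates deviated together in the Prdm1 experiment (r = 0.306 over genes) but hardly in the TIL (0.00674 to 0.0326) or Bcl6 experiment (-0.0624), and 2 pairs do not establish a pairing. With a replicate block, 9, 6 and 6 receptors were called in the TIL comparisons in the order above, 3 in Prdm1-overexpressing cells, where the calls over all genes went to 1659 with the block and 135 without it, and 5 in Bcl6-overexpressing cells.

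Signs turned, mostly near 0. For Cd160 in Bcl6+ against TIM-3+ TILs the log2 fold change was -0.0554 with the length trend removed, -0.0145 without the filter, -0.0398 and -0.0408 with limma on the FPKM scales, and -0.24 to 0.286 with 1 library left out; against DN TILs leaving out 1 library gave -0.453 to 0.0718. Pdcd1 in Bcl6+ against TIM-3+ TILs was 0.0139 with TPM. In TIM-3+ against DN TILs, Ctla4 was 0.113 with the length trend removed and 0.0021 and 0.00211 with limma on the FPKM scales, and Cd101 was 0.00622 with the length trend removed. In Prdm1-overexpressing cells, leaving out 1 library moved Cd101 between -0.461 and 0.219 and Btla between -0.00285 and 0.512. In Bcl6-overexpressing cells, Lag3 was -0.382 with the length trend removed, -0.24 with TPM and -0.0515 to 0.242 with 1 library left out, and Btla was -0.0566 with TPM. In the same cells, without the filter Cd101 was 0.0415 and Pvrig 0.0393, and with 1 library left out they were -0.596 to 0.317 and -0.503 to 0.269. Of 480 single-receptor results under the alternatives that kept all libraries, 427 kept their direction and their side of the threshold, as did 173 of 200 with 1 library left out. Total counts and TPM split the calls over all genes in Bcl6+ against TIM-3+ TILs into 2896 higher and 1283 lower, and 3455 and 1123, in place of 1857 and 1907. In TIM-3+ against DN TILs they gave 869 higher and 2173 lower, and 819 and 2275, in place of 1454 and 1291, and in Bcl6-overexpressing cells TPM gave 1741 and 3784 in place of 2459 and 2261.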
